A study of Mus musculus with 8 samples.

Results

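Heat shock chaperones were described here as 10 genes, fixed by name, out of 47729 genes in the deposited table. The 6 inducible members were Hspa1a, Hspa1b, Hsph1, Dnajb1, Hsp90aa1 and Hspb1, whose transcription is known to climb when cells meet heat or misfolded protein. The 4 constitutive members were Hspa8, Dnaja1, Hsp90ab1 and Hspd1, which most cells transcribe without stress. The split follows textbook knowledge and not these values, but the 10 genes were chosen with earlier results of these data known. All 10 were found under their symbols, and all 10 passed the filter of at least 1 RPKM in at least 2 libraries that left 12900 genes for testing. Hspa1b passed it only through the 2 fresh libraries and organoid replicate 2, so its entry to the tests depends on the group where it is high.

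RNA came from ductal cells of male C57/B6 mice, taken from healthy adult liver and sorted by flow cytometry for EpCAM, an adhesion protein on the surface of bile duct epithelium. The 8 libraries were 2 of freshly isolated cells (0 h), 2 of cells kept 12 h in Matrigel in organoid medium, 1 at 24 h, 1 whose title says 48h, and 2 of organoids grown for 6 days. The 48h-titled library carries 24 h in its other labels and is called by its title. No genetic change or drug is named for any group, all groups share the dissociation and sort, and the only baseline is cells that had just been through both. The labels do not say whether replicates are separate animals. A p-value here therefore speaks only of how these libraries scatter, and that scatter may be technical.

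Chaperones bind unfolded stretches of other proteins and help them fold, refold or reach degradation. HSP70 proteins such as Hspa1a and Hspa8 clamp and release clients in an ATP cycle, J-domain proteins deliver the clients, and HSP110 proteins such as Hsph1 exchange the nucleotide. HSP90 acts later on kinases and receptors, small heat shock proteins hold aggregating protein, and the Hspd1 chaperonin folds proteins inside mitochondria. The transcription factor HSF1 drives the inducible genes by binding heat shock elements, inverted repeats of a short unit. In liver, handling and dissociation of tissue are known to switch on stress genes, heat shock genes among them.

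The heat shock element letters in the promoters of the members are shown first, because HSF1 is known to bind such elements. Hspa1a and Hspa1b, both called in the comparisons with fresh cells, also have nearly the same window. A 2-unit match is a short form of the element and also stood in 17.0% of genes with a window. Sequences are from RefSeq on GRCm38.p6, printed 5′ to 3′ on the strand of the gene. For Hspa1a, Hspa1b and Hspb1 the 150 bases before the annotated start are given, and capitals mark matches to the 2-unit element.
Hspa1a (chr17:34972157-34972306, minus strand): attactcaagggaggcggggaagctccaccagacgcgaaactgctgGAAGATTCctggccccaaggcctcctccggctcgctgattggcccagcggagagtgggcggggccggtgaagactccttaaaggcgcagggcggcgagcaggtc
Hspa1b (chr17:34959239-34959388, minus strand): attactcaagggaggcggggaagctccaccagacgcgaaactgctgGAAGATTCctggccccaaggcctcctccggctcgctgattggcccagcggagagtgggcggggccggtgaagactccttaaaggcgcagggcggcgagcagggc
Hspb1 (chr5:135887769-135887918, plus strand): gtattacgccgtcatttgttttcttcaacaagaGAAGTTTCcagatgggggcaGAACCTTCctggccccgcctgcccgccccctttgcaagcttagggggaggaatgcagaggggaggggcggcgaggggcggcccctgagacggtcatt
The Hspa1a and Hspa1b stretches differed at 1 of these 150 bases, and at 3 of the 250 bases before the start.

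For members whose windows may lie within other annotated transcripts, 30 bases around the longest match are given, again with the match in capitals.
Hspd1 (chr1:55088053-55088082, minus strand): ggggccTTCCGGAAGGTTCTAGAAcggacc
Hsph1 (chr5:149636279-149636308, minus strand): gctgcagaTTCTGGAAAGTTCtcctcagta
Dnaja1 (chr4:40722333-40722362, plus strand): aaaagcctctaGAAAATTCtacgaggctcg
The 3-unit element was searched as TTCNNGAANNTTC or GAANNTTCNNGAA and the 2-unit element as TTCNNGAA or GAANNTTC, which cover both strands, and the 2-unit letters lie inside the 3-unit ones. Windows ran 250 bases before to 50 after the start, and 7 of the 10 members had at least 1. The 3-unit form stood in the windows of Hspd1 and Hsph1, against 0.662% of 27025 genes with a window. The 2-unit form stood in those of 6 members (Hspa1a, Hspa1b, Hspb1, Hspd1, Hsph1 and Dnaja1), against 17.0% of all genes. The Hsph1 letters printed lie after its annotated start, and the capitals of Hspd1 hold 2 overlapping 3-unit matches. The Hspd1 and Dnaja1 letters lie before the RefSeq starts but inside the gene positions given below, which come from another annotation (GENCODE M21). Dnajb1 had a window without either form. Hspa8, Hsp90aa1 and Hsp90ab1 had no window and were not searched. Among the 7 members searched, matches were found in 4 inducible and 2 constitutive ones, and only Dnajb1, an inducible member, had none. Only these exact letters were searched, so an element that departs from them, in Dnajb1 or any other gene, would not be found. The matches describe letters, not binding.

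The defining ductal markers were present in all groups. Epcam averaged 927 ± 38.0 RPKM in organoids, 1019 ± 221 at 12 h and 1101 ± 60.9 in fresh cells (SD, n = 2 each). Krt19, a duct keratin, averaged 1623 ± 420 in organoids, 692 ± 616 at 12 h and 1356 ± 416 in fresh cells, and Sox9, a duct transcription factor, 130 ± 14.1, 245 ± 81.2 and 270 ± 43.9 in the same groups. Between 11 and 14 of 14 ductal markers reached 1 RPKM in each library. The 14 summed to 22619 and 16438 RPKM in organoids, 16322 and 20154 at 12 h, 22821 at 24 h and 18877 in the 48h-titled library, against 29489 and 33099 in fresh cells. Their median change against fresh cells over the 13 tested was −0.76 in organoids and −0.85 at 12 h, with 2 called higher and 1 lower in organoids and 0 called at 12 h. This sum moves in the same direction as the inducible members, and its part in the chaperone result was not tested. RPKM are reads per kilobase of gene, scaled for the depth of the library, and their steps gave 13825195 to 28465472 effective reads in the 8 libraries. The RPKM of organoid replicate 1 summed to 446034, against 357129 to 369701 in the other 7 libraries. In that library 9 of the 10 members were lower than in organoid replicate 2, as were 70.5% of 7319 genes averaging 5 RPKM or more, tested or not, so results for organoids are also given without it where they move.

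In culture the inducible members stood below fresh cells and most constitutive members did not. All 6 inducible members were lower in each of the 6 cultured libraries than in both fresh libraries, and 0 of the 4 constitutive members were. The same held for 1395 of the 12900 genes tested, 10.8% of them. Without organoid replicate 1, an alternative chosen after seeing the data, the count stayed at 6 members against 11.8% of all genes. Without the 24 h library it was 7, since Dnaja1 joined, against 12.5%. Summed over the 6 inducible members, the level was 397 and 452 RPKM in fresh cells, 115 and 149 at 12 h, 113 at 24 h, 79.8 in the 48h-titled library, and 43.7 and 88.1 in organoids. Summed over the 4 constitutive members, it was 991 and 1328 RPKM in fresh cells, 1214 and 1221 at 12 h, 1383 at 24 h, 1208 in the 48h-titled library, and 958 and 1177 in organoids. The inducible share of the 10 members was thus 4.36% to 10.9% in culture and 25.4% to 28.6% in fresh cells. Hsp90ab1 alone gave 858 and 1187 RPKM of the constitutive sum in fresh cells and 827 to 1250 in culture. The sum and the share therefore mostly follow that gene and say little of Dnaja1 or Hspd1.

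**Figure D1:**
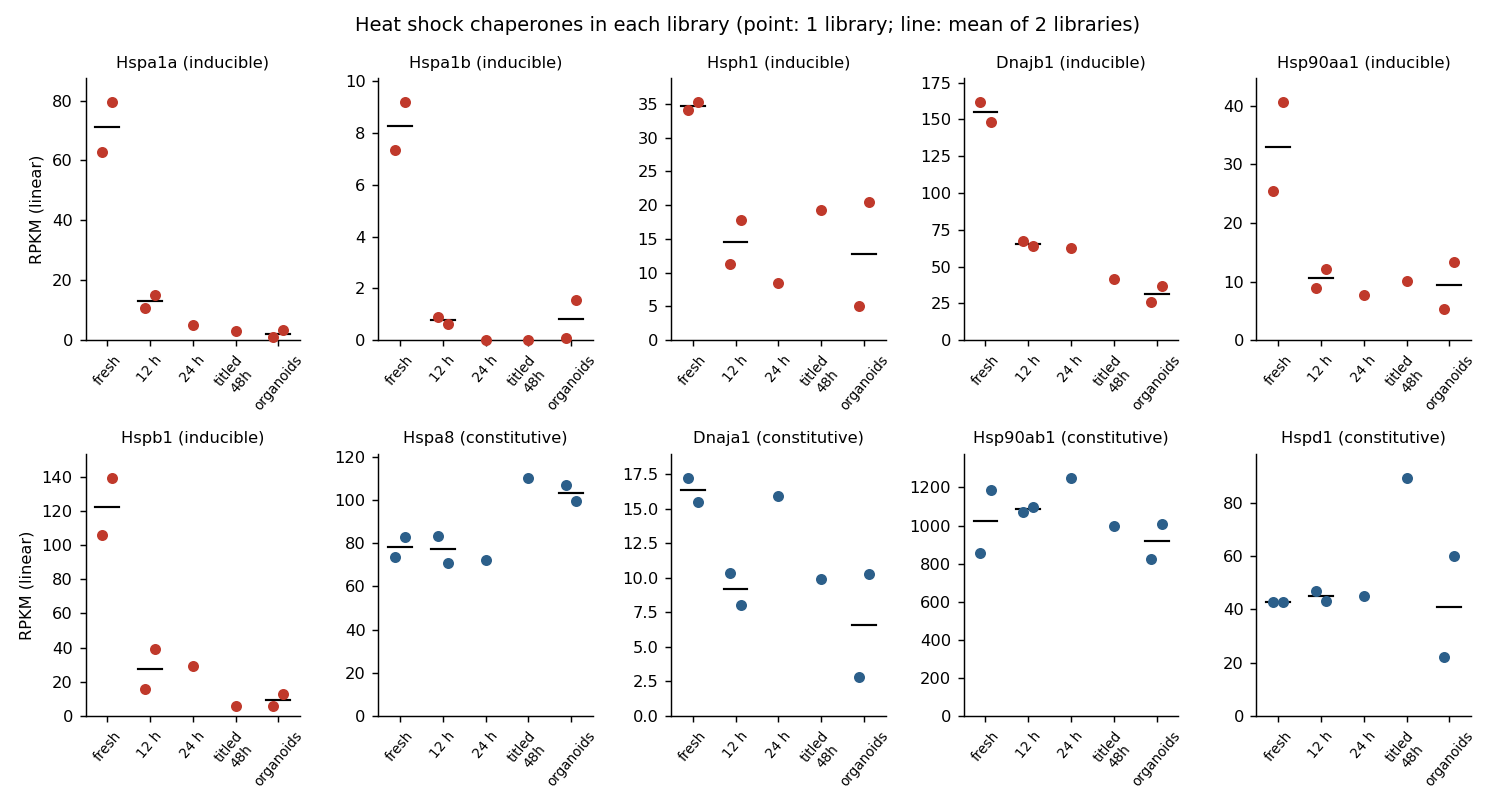
RPKM of each member in each of the 8 libraries on linear axes that start at 0, in time order; each point is 1 library, lines are means of 2 libraries, red marks inducible and blue constitutive members. In the 6 red panels every cultured point lies below both fresh points, while Hspa8, Hsp90ab1 and Hspd1 have cultured points on either side of the fresh ones and Dnaja1 has a 24 h point between them.

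Hspa1a and Hspa1b encode nearly the same inducible HSP70 and lie near each other on chromosome 17 (GRCm38, minus strand; Hspa1a at chr17:34969190-34972156 and Hspa1b at chr17:34956436-34959238, each 1 exon). Hspa1a stood at 62.7 and 79.5 RPKM in fresh cells, 10.8 and 15.2 at 12 h, 5.002 at 24 h, 3.09 in the 48h-titled library, and 0.9746 and 3.451 in organoids. The mean of each group was below that of the group before it, and the fresh and cultured libraries did not overlap. Hspa1b stood at 7.34 and 9.19 RPKM in fresh cells, 0.886 and 0.640 at 12 h, 0.0186 at 24 h, and 0.103 and 1.57 in organoids, and was listed at 0 in the 48h-titled library. The effective reads behind the last of these values were few, with 1 read at 24 h and 4 in organoid replicate 1, against 314 and 733 in fresh cells.

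Both HSP70 genes fell at 12 h. The linear mean of Hspa1a was 13.0 ± 3.09 RPKM at 12 h against 71.1 ± 11.9 in fresh cells, 5.45-fold lower, and that of Hspa1b was 0.763 ± 0.174 against 8.26 ± 1.30, 10.8-fold lower (SD, n = 2 each). Fitted on log2(RPKM + 1), a scale that understates changes of low genes, the changes were −2.37 (SE 0.51, adjusted p = 0.0458) for Hspa1a and −2.39 (SE 0.50, adjusted p = 0.0430) for Hspa1b, by limma with Benjamini-Hochberg adjustment over all genes tested. Against these 2 of 10 members called lower, 3.72% of all genes were called lower and 3.09% higher in that comparison, with 0 members higher. Leaving out each fresh or 12 h library in turn gave changes of −2.60 to −2.14 for Hspa1a and −2.53 to −2.25 for Hspa1b. No member was called in those fits, which also lost most or all calls over the whole table. Both calls also ended with a pseudocount of 0.1 RPKM and with no filter on low values. The shares of all genes called lower were then 4.09% and 1.255%.

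In organoids Hspa1a averaged 2.21 ± 1.75 RPKM, 32.1-fold below fresh cells, with a fitted change of −4.59 (SE 0.51, adjusted p = 0.00921, limma). Hspa1b averaged 0.837 ± 1.04 RPKM, 9.88-fold below, with a change of −2.45 (SE 0.50, adjusted p = 0.0317, limma). With no filter on low values the adjusted p was 0.103 for Hspa1b and 0.0361 for Hspa1a, by limma. The 2 organoid libraries differ widely for Hspa1b, whose level was 10.6% of the Hspa1a level in replicate 1 and 45.5% in replicate 2, against 11.6% to 11.7% in fresh cells. Of the 50-base stretches of the Hspa1a transcripts, 66.3% occur in other genes, mostly Hspa1b, and of those of Hspa1b 62.3%. How the authors assigned shared reads was not given in the sources used here, so the split between the pair is uncertain. Besides Hspa1b, the sharing genes were Gm20481 and Hspa1l, at 0.028 RPKM or less, and the antisense gene Gm10501, at 3.50 RPKM at 24 h, 1.56 in the 48h-titled library and 0.816 or less elsewhere, beside 5.002 and 3.09 RPKM of Hspa1a in those 2 libraries. The sum of Hspa1a and Hspa1b avoids the split within the pair only and was 70.0 and 88.6 RPKM in fresh cells, 11.7 and 15.9 at 12 h, 5.02 at 24 h, 3.09 in the 48h-titled library, and 1.08 and 5.02 in organoids. Hspa1a also shares 564 exonic bases with Gm20481 on the opposite strand, which was listed at 0 in all 8 libraries.

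Dnajb1 and Hspb1 were the other members that fell in organoids. Dnajb1, the J-domain partner that feeds clients to inducible HSP70 (chr8:83608193-83612653, plus strand, 4 exons), had the highest fresh level of the inducible members. It stood at 162 and 148 RPKM in fresh cells, 67.5 and 63.9 at 12 h, 62.9 at 24 h, 41.5 in the 48h-titled library, and 26.2 and 36.5 in organoids. Both fresh libraries stand more than 2-fold above every cultured library. Organoids averaged 31.4 ± 7.34 RPKM against 155 ± 9.57 in fresh cells, 4.94-fold lower, with a fitted change of −2.29 (SE 0.32, adjusted p = 0.0140, limma). At 12 h, at 65.7 ± 2.53 RPKM, the change of −1.22 (SE 0.32) had an adjusted p of 0.0698 by limma and did not pass.

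Hspb1, the small heat shock protein HSP27 that also binds actin (chr5:135887919-135889563, plus strand), stood at 106 and 139 RPKM in fresh cells, 15.97 and 39.01 at 12 h, 29.1 at 24 h, 5.89 in the 48h-titled library, and 6.03 and 12.6 in organoids. The 12 h libraries differ more than 2-fold from each other, yet both are under the fresh ones. Organoids averaged 9.30 ± 4.62 RPKM against 122 ± 23.6 in fresh cells, 13.2-fold lower, with a change of −3.65 (SE 0.54, adjusted p = 0.0156, limma). At 12 h the change of −2.23 (SE 0.54) had an adjusted p of 0.0589 by limma. Of the 50-base stretches of Hspb1, 50.1% occur in 2 other genes, whose summed level was at most 0.798 RPKM in any library.

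Hsph1 and Hsp90aa1 lay below fresh cells in culture without passing the test. Hsph1, the HSP110 exchange factor (chr5:149614287-149636376, minus strand), stood at 34.02 and 35.24 RPKM in fresh cells, 11.2 and 17.8 at 12 h, 8.40 at 24 h, 19.3 in the 48h-titled library, and 4.99 and 20.5 in organoids. The fresh libraries nearly coincide, while the organoid pair spans the whole cultured range. Its changes were −1.65 (SE 0.63, adjusted p = 0.141) in organoids and −1.23 (SE 0.63, adjusted p = 0.267) at 12 h against fresh cells, by limma. Hsp90aa1, the inducible cytosolic HSP90 (chr12:110690605-110702728, minus strand), stood at 25.4 and 40.6 RPKM in fresh cells, 8.94 and 12.2 at 12 h, 7.63 at 24 h, 10.1 in the 48h-titled library, and 5.41 and 13.4 in organoids. Every cultured library was at 13.4 RPKM or less, below both fresh ones. Its changes were −1.79 (SE 0.52, adjusted p = 0.0763) in organoids and −1.53 (SE 0.52, adjusted p = 0.119) at 12 h, by limma. Of its 50-base stretches, 47.5% recur in 4 pseudogenes, whose summed level did not exceed 2.69 RPKM.

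Against 4 of 10 members called lower in organoids relative to fresh cells, 4.94% of all genes were called lower and 5.15% higher, with 0 members higher. Without organoid replicate 1 the count was 1 member, Hspa1a, and without organoid replicate 2 it was 6, with Hsph1 and Dnaja1 added, beside 0.426% and 5.34% of all genes called lower in the same fits. Without either fresh library 0 of the 12900 genes passed in this comparison by limma, with 2163 and 1847 genes at an unadjusted p under 0.05, so each count of calls rests on both fresh libraries. A library left alone in its group is assumed in these fits to vary like the others. With organoid replicate 1 left out, the organoid changes were −4.01 for Hspa1a, −1.84 for Hspa1b, −2.05 for Dnajb1 and −3.17 for Hspb1. They were −0.73 for Hsph1, −1.20 for Hsp90aa1 and −0.62 for Dnaja1.

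The median log2 change of 7316 tested genes averaging 5 RPKM or more was 0.40 at 12 h against fresh cells, 0.27 in organoids against fresh cells and −0.17 in organoids against 12 h. It was 0.30 at 24 h and 0.45 in the 48h-titled library, both against fresh cells. The median over the 6 inducible members was −1.88 at 12 h and −2.37 in organoids against fresh cells, and that over the 4 constitutive members 0.03 and −0.19. Taken relative to the median of each library, 5 members were called lower in each of these 2 comparisons, namely Hspa1a, Hspa1b, Dnajb1, Hspb1 and Hsp90aa1, beside 6.50% of all genes called lower at 12 h and 6.48% in organoids.

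**Figure D2:**
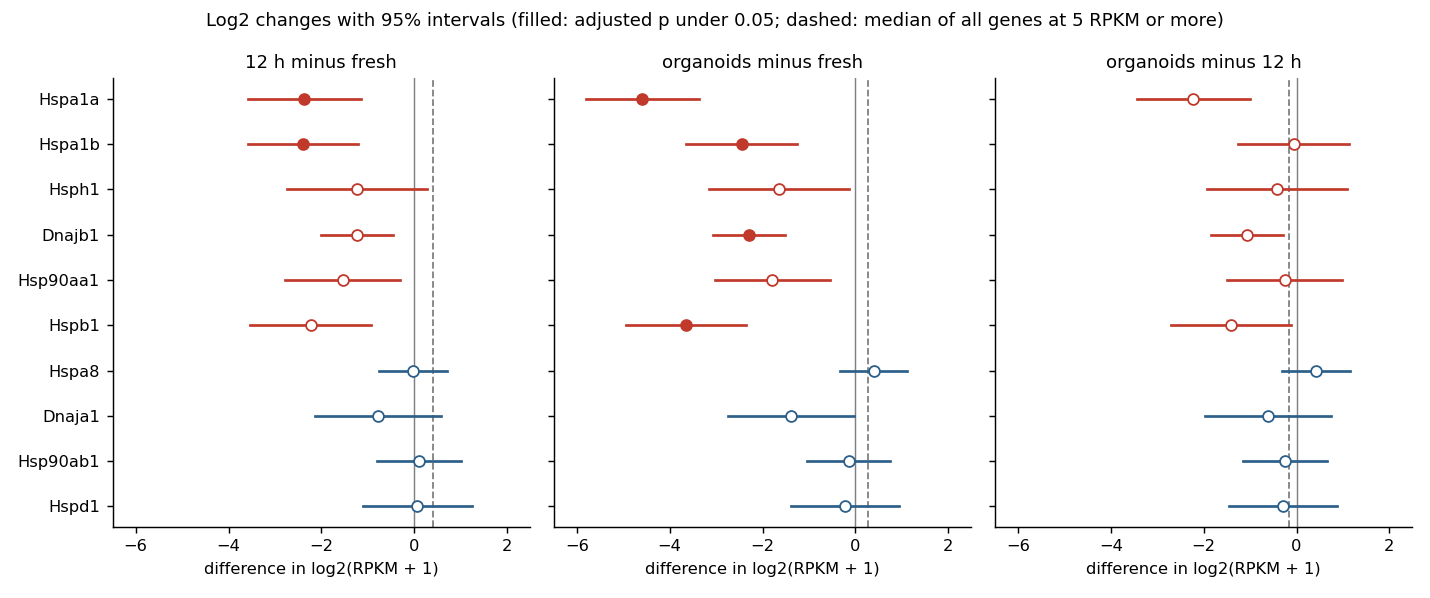
Fitted differences in log2(RPKM + 1) of the 10 members with 95% intervals from limma in the 3 replicated comparisons; filled points passed an adjusted p of 0.05, dashed lines are the medians of all genes averaging 5 RPKM or more, red marks inducible and blue constitutive members. Filled points are Hspa1a and Hspa1b at 12 h, these and Dnajb1 and Hspb1 in organoids against fresh cells, and no member in organoids against 12 h.

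The 4 constitutive members had no call in any comparison fitted over all 8 libraries, and their changes are given with 95% intervals, since a missed threshold does not show equal levels. Hspa8, the cognate HSP70 of unstressed cells (chr9:40800984-40810087, plus strand), stood at 73.3 and 82.9 RPKM in fresh cells, 83.3 and 71.0 at 12 h, 72.2 at 24 h, 110 in the 48h-titled library, and 107 and 99.5 in organoids. The fresh and 12 h libraries overlap, and the last 3 libraries are above all others. Its change was 0.40 (95% interval −0.33 to 1.12, adjusted p = 0.429) in organoids and −0.02 (−0.75 to 0.71, adjusted p = 0.978) at 12 h against fresh cells, by limma. Hspa8 shares 39.4% of its 50-base stretches with other genes, 12 of them pseudogenes, whose summed level was at most 5.23 RPKM.

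Hsp90ab1, the constitutive cytosolic HSP90 (chr17:45567775-45573271, minus strand), was the most abundant member in every library and lay above 99.6% to 99.9% of the genes tested, depending on the group. It stood at 858 and 1187 RPKM in fresh cells, 1074 and 1099 at 12 h, 1249.98 at 24 h, 998 in the 48h-titled library, and 827 and 1008 in organoids. The fresh pair alone spans all but 2 of the cultured values. Its change was −0.14 (95% interval −1.05 to 0.76) in organoids and 0.11 (−0.80 to 1.01) at 12 h against fresh cells.

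Hspd1, the mitochondrial HSP60 (chr1:55077835-55088243, minus strand), stood at 42.8 and 42.7 RPKM in fresh cells, 47.0 and 43.0 at 12 h, 45.1 at 24 h, 89.3 in the 48h-titled library, and 22.0 and 59.9 in organoids. The first 5 libraries lie within 5 RPKM of one another, and the organoid pair lies on both sides of them. Its change was −0.23 (95% interval −1.40 to 0.94) in organoids and 0.07 (−1.10 to 1.24) at 12 h. Relative to the median of each library the 12 h changes of Hspd1 and Hsp90ab1 take the opposite sign, −0.29 and −0.26. Without organoid replicate 1 the organoid change of Hspd1 was 0.48. Hspe1, the co-chaperonin partner transcribed the other way from the same region, shares 112 exonic bases with Hspd1 and stood at 28.001 to 73.62 RPKM.

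Dnaja1, a J-domain partner of Hspa8 (chr4:40722150-40737149, plus strand), was the constitutive member nearest to the inducible pattern. It stood at 17.2 and 15.5 RPKM in fresh cells, 10.3 and 7.999 at 12 h, 15.9 at 24 h, 9.92 in the 48h-titled library, and 2.84 and 10.3 in organoids. The 24 h library was the only cultured one within the fresh range. Its change was −1.40 (95% interval −2.75 to −0.04, adjusted p = 0.161) in organoids and −0.78 (−2.14 to 0.58, adjusted p = 0.431) at 12 h, by limma. With organoid replicate 1 left out, the organoid change of Dnaja1 was −0.62. Its exons overlap Smu1 by 608 bases and Gm6297 by 249 on the opposite strand, where Gm6297 stood at 10.4 RPKM at 24 h and 4.92 in 12 h replicate 1 and under 0.5 elsewhere. Smu1 stood at 43.6 to 128.7 RPKM and was above Dnaja1 in every library. Whether counting used strand was not given in the sources used here, so reads of these genes cannot be told apart. The part of such reads in the level of Dnaja1 was not tested.

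Organoids and 12 h cells were not separated at the threshold for any member. Hspa1a was 5.89-fold lower in organoids than at 12 h, at a change of −2.22 (SE 0.51, adjusted p = 0.0807, limma). Dnajb1 followed at −1.06 (SE 0.32, adjusted p = 0.147) and Hspb1 at −1.42 (SE 0.54, adjusted p = 0.227), by limma. The change of Hspa1b was −0.06 (SE 0.50) and takes the opposite sign, 0.16, once libraries are centred on their medians. By limma with adjustment 0 of 10 members passed and 3 had an unadjusted p under 0.05 (Hspa1a, Dnajb1 and Hspb1), beside 19.1% of all genes at an unadjusted p under 0.05. Of all genes 0.62% were called lower and 1.38% higher after adjustment.

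Each lone library was set against the 2 fresh ones. With 1 library there is no replicate check, and the p-values take the spread wholly from the other groups, on the assumption that the lone library varies like them. Under that assumption the members called lower at 24 h were Hspa1a (change −3.58, adjusted p = 0.0259) and Hspa1b (−3.18, adjusted p = 0.0310), and in the 48h-titled library they were Hspa1a (−4.13, adjusted p = 0.0327), Hspa1b (−3.20, adjusted p = 0.0467) and Hspb1 (−4.15, adjusted p = 0.0355), by limma. At 24 h 6.66% of all genes were called lower and 4.26% higher. In the 48h-titled library 1.47% were called lower and 1.84% higher. Hspd1 had its highest value in the 48h-titled library, with a change of 1.05 (95% interval −0.39 to 2.48, adjusted p = 0.344, limma). Without either fresh library 0 genes passed in these comparisons by limma, with 2417 and 2322 at an unadjusted p under 0.05 at 24 h and 1790 and 1534 in the 48h-titled library. With no filter on low values, of the member calls at 24 h and in the 48h-titled library only that of Hspa1a in the latter held. All of these comparisons share the fresh libraries.

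The order of the members by level differed between the groups. In fresh cells Hsp90ab1 came first, then Dnajb1, Hspb1, Hspa8 and Hspa1a, Hspd1, Hsph1 and Hsp90aa1, Dnaja1 and last Hspa1b. The ranges of the 2 libraries overlapped there between neighbours Hspa8 and Hspa1a and between Hsph1 and Hsp90aa1. At 12 h the order was Hsp90ab1, Hspa8, Dnajb1 and Hspd1, each apart from the next, then Hspb1, Hsph1, Hspa1a, Hsp90aa1 and Dnaja1, whose neighbouring ranges overlapped, and Hspa1b. In organoids Hsp90ab1 and Hspa8 stood apart at the top, Hspd1 overlapped Dnajb1, and from Hsph1 through Hsp90aa1, Hspb1, Dnaja1 and Hspa1a to Hspa1b each range overlapped the next. Hspa1a lay above 94.2% of the genes tested in fresh cells, and above 66.0% at 12 h and 29.3% in organoids.

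Set against a relative in the same library, the inducible genes had a lower ratio in each of the 6 cultured libraries than in both fresh ones in the 4 pairs plotted. The summed level of Hspa1a and Hspa1b was 95.5% and 107% of that of Hspa8 in fresh cells, 14.1% and 22.3% at 12 h, 6.95% at 24 h, 2.81% in the 48h-titled library, and 1.01% and 5.05% in organoids. The cognate HSP70 message thus made up most of the pool in every cultured library, and the inducible and cognate messages were about level in fresh cells. Hsp90aa1 was between 0.610% and 1.33% of Hsp90ab1 in the 6 cultured libraries and 2.96% and 3.42% in fresh cells, so most cytosolic HSP90 message was Hsp90ab1 throughout. Hsph1 was between 8.18% and 37.6% of Hspa4, its less inducible HSP110 relative, in culture and 68.6% and 67.1% in fresh cells. The ratio of Dnajb1 to Dnaja1 was between 355% and 921% in culture and 939% and 957% in fresh cells, and it came near the fresh range in organoid replicate 1, where Dnaja1 was lowest. Hspb1 was between 9.77% and 29.5% of Cryab, another small heat shock protein, in culture and 65.6% and 78.9% in fresh cells. Among constitutive members, Hspd1 was between 43.0% and 193% of Hspe1 in culture and 104% and 153% in fresh cells.

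**Figure D3:**
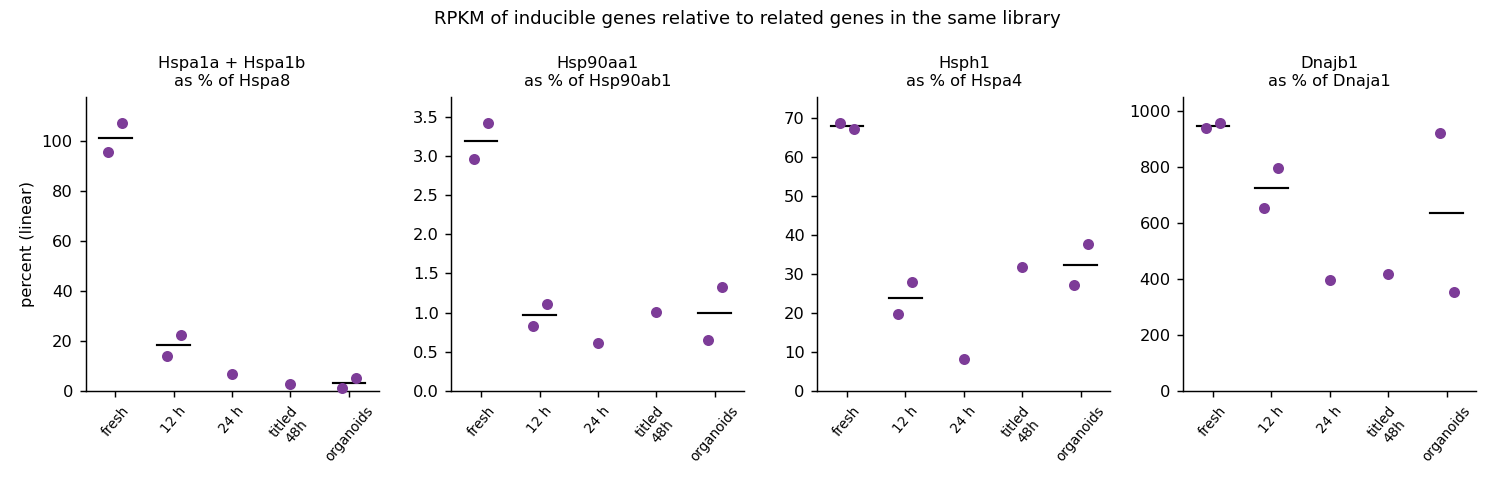
RPKM of inducible genes as a percentage of a related gene in the same library, on linear axes from 0, in time order; points are libraries and lines are means of 2 libraries. The HSP70, HSP90 and HSP110 ratios are highest in the 2 fresh libraries, while the Dnajb1 to Dnaja1 ratio of 1 organoid library is at 921%, near the fresh values.

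On the log2(RPKM + 1) scale, the median level of the inducible members minus that of the constitutive members was −0.27 and −0.07 in fresh cells, −2.40 and −1.69 at 12 h, −2.69 at 24 h, −3.52 in the 48h-titled library, and −3.01 and −2.48 in organoids. The difference of these medians was −2.58 for organoids minus fresh cells, −1.88 for 12 h minus fresh cells and −0.70 for organoids minus 12 h. With Dnaja1 counted as inducible the same differences were −2.48, −1.44 and −1.04. No test is attached to them, since the members were chosen with earlier results known.

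Other genes of the chaperone network mostly did not pass the test. Hsf1, the main heat shock transcription factor, stood at 17.0 and 17.6 RPKM in fresh cells, 21.3 and 13.0 at 12 h, 16.2 at 24 h, 25.7 in the 48h-titled library, and 9.49 and 19.4 in organoids, and Hsf2, a second factor of the family, between 1.47 and 18.3 RPKM over the 8 libraries. Their organoid changes against fresh cells were −0.32 (adjusted p = 0.684) and −0.70 (adjusted p = 0.514), and the 12 h changes −0.05 (adjusted p = 0.960) and 0.18 (adjusted p = 0.890), by limma. The levels of Hsf1 overlap between all groups with replicates. Of 3 heat shock factors and repressors tested, 0 passed at 12 h or in organoids.

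Among 18 HSP90 relatives and co-chaperones, such as Stip1 and Cdc37, 0 passed in organoids or at 12 h, though all 18 had a 12 h change above 0, with a median of 0.78 beside 0.40 for all genes at 5 RPKM or more. Their organoid median was 0.27. Of 15 chaperonin and prefoldin genes tested 0 passed, with medians of 0.55 in organoids and 0.49 at 12 h. Among 6 other HSP70 and HSP110 genes 0 passed, with medians of −0.32 and 0.15 in the same order. Of 17 other J-domain genes, 1 rose in organoids and 0 at 12 h. That gene was Dnajc9, a chaperone of histones, at 47.6 ± 20.8 RPKM in organoids against 6.87 ± 1.88 in fresh cells (change 2.58, adjusted p = 0.0228, limma).

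Of 11 exchange factors and regulators of HSP70, Stub1 rose at 12 h and Grpel2 fell in organoids. Stub1, the ubiquitin ligase CHIP that marks chaperone clients for degradation, averaged 105 ± 10.8 RPKM at 12 h against 33.8 ± 1.19 in fresh cells (change 1.61, adjusted p = 0.0361, limma). In organoids Stub1 stood at 73.9 and 80.7 RPKM, with an adjusted p of 0.0571 by limma. Grpel2, a mitochondrial exchange factor, averaged 13.5 ± 2.504 RPKM in organoids against 61.0 ± 4.30 in fresh cells (change −2.11, adjusted p = 0.0228, limma). Of 22 other HSF1 targets, 0 rose, while 1 fell at 12 h and 3 fell in organoids against fresh cells. At 12 h 11 of them had a change above 0 and 11 below, with a median of −0.06. In organoids 9 were above 0 and 13 below, with a median of −0.47. Mt2 and Hmox1 were among those that fell in organoids against fresh cells, and Mt2 also fell in organoids against 12 h. Mt2, a metallothionein, stood at 29.1 and 16.5 RPKM in organoids against 210 and 182 in fresh cells, and Hmox1, a heme oxygenase, at 36.4 and 9.93 against 233 and 148. The changes were −3.09 (adjusted p = 0.0119) for Mt2 and −3.21 (adjusted p = 0.0271) for Hmox1 in organoids against fresh cells, by limma.

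Among small heat shock proteins other than Hspb1, 4 were tested and 0 passed. Hspb8, named after its values were seen, stood at 0.0245 to 9.06 RPKM in the 6 cultured libraries and 62.0 and 96.9 RPKM in fresh cells, with an adjusted p of 0.0503 in organoids and 0.0590 at 12 h by limma. Of 16 chaperones of the endoplasmic reticulum, 2 rose and 2 fell in organoids, and 0 passed at 12 h. Sdf2l1 averaged 65.6 ± 10.4 RPKM in organoids against 5.18 ± 2.71 in fresh cells (change 3.49, adjusted p = 0.0211), and Dnajc10, a disulfide reductase, 63.4 ± 0.0617 against 16.8 ± 0.670 (1.86, adjusted p = 0.0297), by limma. Dnajb9 fell to 37.7 ± 21.04 RPKM in organoids against 159 ± 24.1 in fresh cells (−2.16, adjusted p = 0.0336, limma). Hspa5, the main HSP70 of that compartment and named after its values were seen, fell to 234 ± 9.50 RPKM against 667 ± 24.0 (−1.51, adjusted p = 0.0394, limma).

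**Figure D4:**
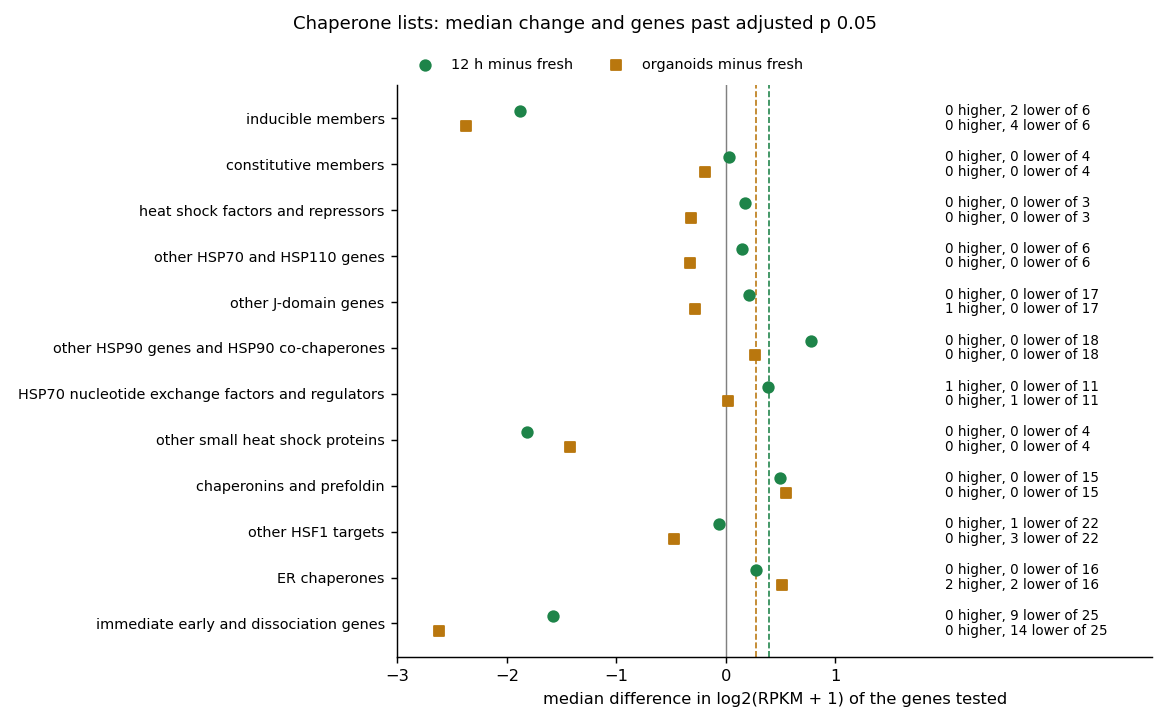
Median difference in log2(RPKM + 1) of the tested genes of each chaperone or stress list, for 12 h minus fresh cells (circles) and organoids minus fresh cells (squares), with the counts that passed printed at the right, 12 h above organoids; dashed lines are the medians of all genes averaging 5 RPKM or more. The inducible members, the other small heat shock proteins and the immediate early genes have medians below −1 in both comparisons, and the other lists lie between −0.47 and 0.78.

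Other measures moved with the inducible members. Of 25 immediate early and dissociation genes tested, 14 fell in organoids and 9 at 12 h against fresh cells, 2 fell in organoids against 12 h, and 0 rose. Over all genes tested, 4.94% were called lower in organoids and 3.72% at 12 h against fresh cells, and 0.62% in organoids against 12 h. Fosb averaged 0.1204 ± 0.1211 RPKM in organoids and 0.436 ± 0.541 at 12 h, against 42.8 ± 20.8 in fresh cells, with adjusted p of 0.00746 and 0.0189 by limma. Atf3, a stress-response factor, averaged 11.7 ± 6.24 and 41.7 ± 17.3 RPKM in organoids and at 12 h, against 495 ± 152 in fresh cells (adjusted p = 0.00664 and 0.0260, limma). Zfp36 averaged 9.05 ± 1.45 and 28.3 ± 4.53 RPKM in organoids and at 12 h, against 306 ± 47.3 in fresh cells. Fosl1, an AP-1 factor, and Klf6, a zinc finger factor, fell both against fresh cells and against 12 h, to 8.44 ± 8.88 and 21.4 ± 0.306 RPKM in organoids, against 161 ± 12.3 and 94.9 ± 29.3 at 12 h. The 20 hepatocyte markers summed to 92.1 and 234 RPKM in organoids, 58.7 and 97.5 at 12 h, 118 at 24 h and 691 in the 48h-titled library, against 1155 and 1257 in fresh cells, and 11 of 16 tested fell in organoids and 10 at 12 h. In bulk samples fewer cells of a type and less RNA per cell cannot be told apart.

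The 14 immune markers summed to 4.88 to 27.2 RPKM in the 6 cultured libraries and 22.2 and 31.0 in the fresh ones, with Cd3e and Nkg7 among those at 0 in all 8. Endothelial markers summed to 0.0129 to 2.17 RPKM in culture and 5.01 and 5.13 in fresh cells, and mesenchymal and stellate markers to 0.125 to 3.03 in culture and 4.47 and 14.7 in fresh cells. Mitochondrial genes held 3.92% to 9.87% of the summed RPKM in culture and 5.52% to 7.21% in fresh cells. The part of these measures in the chaperone result was not tested.

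The genes most alike to the HSP70 pair over the 8 libraries were named by Pearson r with the mean of Hspa1a and Hspa1b, among 7089 genes tested and averaging 5 RPKM or more, predicted genes and members left out. They were Sgms2 (r = 0.987), a sphingomyelin synthase, Rab5a (r = 0.979), an early endosome GTPase, Cxcl10 (r = 0.978), a chemokine, Tsc22d2 (r = 0.978) and Zfp36 (r = 0.978), an mRNA decay factor on the immediate early list. Sgms2 stood at 506 and 443 RPKM in fresh cells, 59.6 and 72.2 at 12 h, 23.1 at 24 h, 21.4 in the 48h-titled library, and 21.2 and 31.1 in organoids. Those most alike to the mean of the constitutive members were Rhoj (r = 0.982), Gtf2h1 (r = 0.982), Ppp2r1b (r = 0.969), Hnrnpd (r = 0.964) and Khdrbs1 (r = 0.962), all of which had their lowest value in organoid replicate 1. The libraries behind each r share groups and depth, and r is given as a description.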

How the data were processed

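Per the labels, total RNA of sorted cells was extracted with a micro column kit, copied by Smart-seq2 and tagmented with Nextera XT. The authors deposited 1 RPKM value per gene and library. GRCm38 is the build and edgeR a tool named in the submitters' processing notes. The aligner, counter, annotation, strandedness and any scaling between libraries were not given in the sources used here. Symbols and positions came from GENCODE M21, which matched 47224 of 47729 identifiers. Between 88.7% and 92.3% of low values were whole multiples, within 0.01, of what 1 read is worth, which gave the effective reads.

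The 12900 genes that reached 1 RPKM in 2 or more libraries were fitted with limma 3.58.1 (R 4.3.3) on log2(RPKM + 1), with 1 coefficient per group over all 8 libraries, a variance trend and two-sided p-values adjusted by Benjamini-Hochberg within each comparison, at a threshold of 0.05. The fit was tested on 5 simulated data sets with planted changes at 12 h. It recovered 35.4% of log2 changes of 2 and 96.8% of those of 4, with a mean of 8.4 false calls per run. Each simulated set held 100 planted changes of each size, while 878 genes were called at 12 h in the data. The share recovered may therefore differ in the data. Most planted changes of 2 were missed, so a change of that size that did not pass is not evidence of equal levels. The members and lists were chosen with earlier results of these data known. Named genes are the members, up to 3 passing genes of each list and replicated comparison by size, Hsf1, Hsf2, the most alike genes (Pearson r on log2 values) and Epcam, Krt19 and Sox9. Hspa4, Hspa1l, Hspe1, Cryab, Smu1, Gm6297, Gm10501 and Gm20481 are named as relatives or overlapping genes, Stip1 and Cdc37 as examples of their list, and Hspb8 and Hspa5 after their values were seen. Alternatives were the pseudocount, the filter, centring on library medians, a replicate block, fits on the compared groups only and leaving out each library. Intervals are 95% and cover the spread between libraries, not counting error alone. Protein sequences were not used here. Results for 2 further genes of the lists are not reported here by name.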

Additional observations from a re-analysis of the deposited data

How the results depend on the processing

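The number of members called was 2 at 12 h, 4 in organoids, 0 in organoids against 12 h, 2 at 24 h and 3 in the 48h-titled library. In the same order 3.72%, 4.94%, 0.620%, 6.66% and 1.47% of all genes were called lower. With a pseudocount of 0.1 RPKM the number of members was 0, 3, 0, 2 and 0. The shares of all genes called lower were then 4.09%, 4.08%, 0.845%, 12.9% and 0.504%. With no filter on low values, which raises the genes tested to 26693, the number of members was 0, 2, 0, 0 and 1. The shares called lower were 1.255%, 1.79%, 0%, 2.08% and 1.23%. With a mean of at least 5 RPKM, which leaves out Hspa1b, the number of members was 2, 3, 0, 1 and 2. The shares called lower were 2.69%, 5.92%, 0.820%, 8.74% and 1.82%. With libraries centred on their medians it was 5, 5, 0, 5 and 4 members. The shares called lower were 6.50%, 6.48%, 0.574%, 12.5% and 2.88%. All members called in these fits were lower. Leaving out each library in turn gave 0 to 0 members at 12 h, 0 to 6 in organoids, 0 in organoids against 12 h, and 0 to 0 at 24 h and in the 48h-titled library. Leaving out a library lowers the number of libraries, and dropping the filter raises the number of genes. The pseudocount and the centring kept all 8 libraries and 12900 genes. The cause of the shifts in these counts was not tested. Samples that share a replicate number correlated in their differences at r = 0.282 (fresh, 12 h), 0.267 (fresh, organoids) and 0.0238 (12 h, organoids), which is not over 0.1 in every pair, so the numbers were not taken to pair the samples. With a replicate block the counts were 3, 5 and 0, beside 3.02%, 5.19% and 0.496% of all genes called lower. This added Hspb1 at 12 h (adjusted p = 0.0392) and Hsp90aa1 in organoids (adjusted p = 0.0439), by limma. With only the 2 groups compared the counts were 3, 4 and 0, beside 4.20%, 5.845% and 0% of all genes called lower.

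Inducible minus constitutive members kept its sign in every alternative run. With Hspa1a and Hspa1b summed to 1 gene it was −2.39 at 12 h and −3.14 in organoids. Leaving out libraries gave −2.23 to −1.52 at 12 h, −2.84 to −2.47 in organoids and −1.06 to −0.34 in organoids against 12 h.

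Of 415 single-member changes recomputed, 340 kept their sign and side of the threshold, 43 lost a call, 14 gained one and 18 turned sign, each of these in a member without a call. On centring, Hspd1 gave −0.29 at 12 h and −0.29 at 24 h, Hsp90ab1 −0.26 at 12 h and −0.053 at 24 h, and Hspa1b 0.16 in organoids against 12 h. Leaving out each library gave ranges at 12 h of −0.13 to 0.34 for Hsp90ab1 and −0.13 to 0.094 for Hspa8. In organoids they were −0.93 to 0.48 for Hspd1 and −0.38 to 0.089 for Hsp90ab1. In organoids against 12 h they were −1.0002 to 0.41 for Hspd1, −0.84 to 0.33 for Hsp90aa1, −0.67 to 0.55 for Hspa1b, −1.39 to 0.16 for Dnaja1 and −1.34 to 0.51 for Hsph1. They were −0.11 to 0.038 for Dnaja1 at 24 h and −0.25 to 0.22 for Hsp90ab1 in the 48h-titled library.

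Over all genes tested, the calls ranged by setting from 0 to 1139 at 12 h (878 as reported), 0 to 1451 in organoids (1301), 0 to 418 in organoids against 12 h (258), 0 to 2258 at 24 h (1409) and 0 to 930 in the 48h-titled library (427). Where 0 genes passed by limma, between 1534 and 3458 had an unadjusted p under 0.05. Centring on library medians gave 300 genes higher and 839 lower at 12 h (398 and 480 as reported), 557 and 836 in organoids (664 and 637), 283 and 74 in organoids against 12 h (178 and 80), 519 and 1609 at 24 h (550 and 859), and 206 and 372 in the 48h-titled library (237 and 190). Levels under about 0.1 RPKM rest on a few reads.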
